A study of Drosophila melanogaster with 2 samples.

Results

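The genes of the proteasome were examined for promoter peaks of tx, known as taxi or delilah and a member of the basic helix-loop-helix (bHLH) class of transcription factors, in chromatin immunoprecipitation with sequencing (ChIP-seq) of Drosophila melanogaster embryos. The members are defined by gene symbol, a choice made with earlier results of these data known. They are the protein-coding genes whose symbol starts with Prosalpha or Prosbeta, or with Rpn or Rpt and a digit, and there are 48 of them among 13945 protein-coding genes on 6 chromosome arms. The samples form 1 group of 2 biological replicates: pooled male and female whole embryos aged 0 to 24 h, from a transgenic line that stably expresses tx with a C-terminal green fluorescent protein, precipitated with an antibody to that tag. No untagged or mock precipitate was analysed here, so a peak is enrichment over the 1 control alignment that both replicates share. Whole embryos mix all cell types, so the cells behind a peak are not known. With 1 group and no comparison group, values are given as counts, ranks and shares with 95% Wilson intervals, which cover the counting of genes only, and no p-value is given.

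The proteasome is the protease complex that degrades proteins marked with ubiquitin. Its core particle is a barrel of alpha rings, which gate the entrance, and beta rings, in which the subunits beta1, beta2 and beta5 hold the active sites. The regulatory particle caps the barrel: its Rpt subunits are ATPases that unfold the substrate, and its Rpn subunits form the rest of the base and the lid, which bind ubiquitin chains and remove them. In flies many subunits also have a paralog whose symbol ends in T or R, and several of these are known for expression in the male germline. By these symbols 18 members were regulatory particle genes (12 Rpn, 6 Rpt), 14 were core genes (7 alpha, 7 beta) and 16 were T or R paralogs.

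Each gene was given the strongest peak summit within 1000 bp of any of its transcription start sites (TSSs). It was called bound when that summit belonged to the optimal set by irreproducible discovery rate (IDR), the 3102 peaks that the authors kept on the dm6 genome build. Otherwise the pooled relaxed list of 30000 peaks was used, which by design also holds background. Ranks run from 1, the strongest, by the authors' signal value, and are read only within a list. The first 3102 peaks of the pooled list are the same intervals and signals as the optimal set, so ranks in both run on 1 scale.

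Regulatory particle genes carried most of the bound promoters, and no paralog was bound. Bound promoters numbered 8 of 48 among all members (16.7%, interval 8.70 to 29.6%), against 18.9% of all protein-coding genes (2631 of 13945), so the family as a whole stood near the level of all genes. They numbered 6 of 18 among regulatory particle genes (33.3%, interval 16.3 to 56.3%), 2 of 14 among core genes (14.3%, interval 4.01 to 39.9%) and 0 of 16 among T or R paralogs (interval 0 to 19.4%). Each of these 3 intervals includes 18.9%, so at this number of genes no class stands apart from all genes in the optimal set. In the relaxed list the classes lay further apart. There 17 of 18 regulatory particle genes (94.4%, interval 74.2 to 99.0%) and 11 of 14 core genes (78.6%, interval 52.4 to 92.4%) had a promoter summit, but 3 of 16 paralogs did (18.8%, interval 6.59 to 43.0%), against 62.9% of all protein-coding genes (8777 of 13945). The intervals of the regulatory particle and of the paralogs lie on either side of 62.9%. That level is not matched for the arrangement of the genes, which is compared further on.

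**Figure D1:**
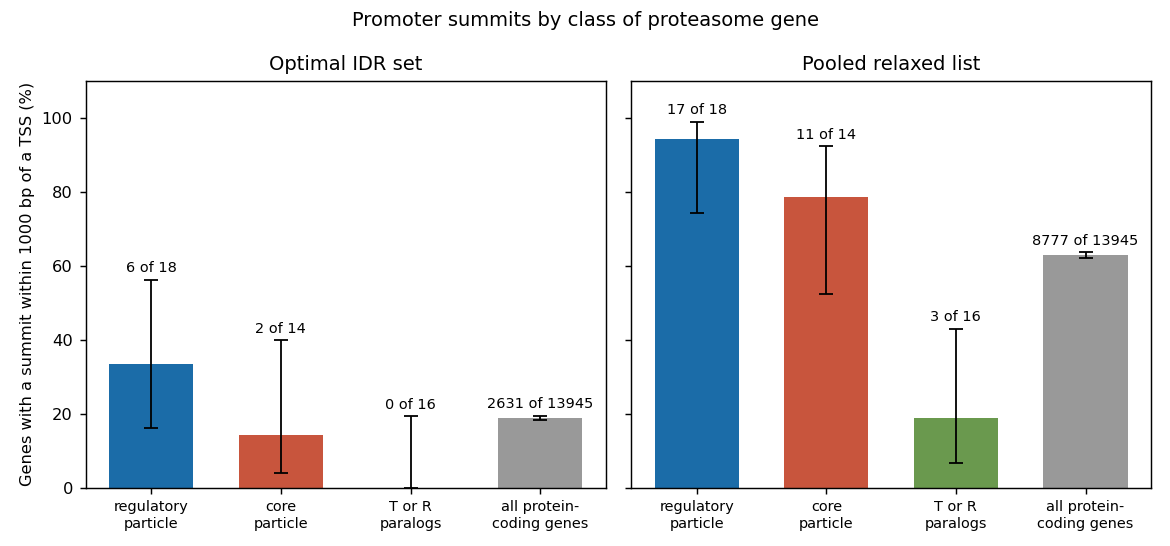
Share of genes with a summit within 1000 bp of a TSS, in percent, in the optimal IDR set (left) and in the pooled relaxed list (right); bars are shares, error bars are 95% Wilson intervals and the counts stand above them. In the relaxed list the bar of the paralogs (18.8%) lies below that of all protein-coding genes (62.9%), and those of the regulatory particle (94.4%) and core (78.6%) lie above it.

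The DNA at the summits is shown for bound genes, for genes with a searched word beside the summit and for the core gene of the highest rank, where it can be printed and the summit lies outside exons. Each stretch runs 5′ to 3′ on the sense strand of the named gene, within 50 bp of the summit, and stops at the first annotated exon of any gene on either side. The capitals mark CANNTG, the E-box that bHLH factors are known to bind, which stood in those of Rpn12 and Rpn9. TATCGATA, the DREF site described further on, GGTCACAC and TGACNNNGC did not stand whole in these stretches. The windows of 50 bp either side reach further: at Rpn3 the window also held an E-box, at Rpt5 TATCGATA and at Rpn9 GGTCACAC, none of them whole within the stretch shown. At Rpt5 the stretch opens with the end of the word. Rpn11 and Rpn2 were added as bound genes. The stretches come from the Release 6 genome (dm6) of RefSeq and lie, in the same order, at chr3R:5789193-5789293, chr2L:19051738-19051789, chr3R:23752835-23752875, chr2L:5059850-5059950 (minus strand), chr3R:29153398-29153498, chr3L:16582824-16582924, chr3R:23733170-23733251 (minus strand) and chr2L:10221234-10221334.
Rpn5: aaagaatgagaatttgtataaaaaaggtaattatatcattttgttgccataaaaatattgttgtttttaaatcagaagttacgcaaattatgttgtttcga
Rpn3: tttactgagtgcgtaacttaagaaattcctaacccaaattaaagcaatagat
Rpt5: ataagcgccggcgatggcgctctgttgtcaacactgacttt
Rpn11: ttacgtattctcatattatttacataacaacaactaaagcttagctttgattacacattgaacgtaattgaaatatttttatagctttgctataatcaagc
Rpn2: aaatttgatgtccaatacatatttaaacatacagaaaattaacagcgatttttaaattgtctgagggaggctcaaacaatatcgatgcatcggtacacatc
Rpn12: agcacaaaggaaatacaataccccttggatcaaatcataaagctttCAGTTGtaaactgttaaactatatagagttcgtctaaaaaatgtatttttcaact
Rpn9: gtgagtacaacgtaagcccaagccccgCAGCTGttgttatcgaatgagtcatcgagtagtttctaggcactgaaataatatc
Prosalpha6: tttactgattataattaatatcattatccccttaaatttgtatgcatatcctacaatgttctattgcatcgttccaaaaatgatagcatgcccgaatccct

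Rpn5, a lid subunit, had the strongest promoter peak of the family. Its summit, on 3R at 5789243 in a peak from 5789142 to 5789265, had a pooled signal of 238.8 and rank 229. At that place replicate 1 had a signal of 181.7 (rank 183) and replicate 2 one of 56.1 (rank 419), and signals are not comparable between lists. It lay 250 bp upstream of the Rpn5 TSS and inside an intron of Hat1, the neighbouring gene for a histone acetyltransferase, so the peak cannot be assigned to Rpn5 alone. Another optimal summit, of rank 1006, lay at -51 bp from the Rpn5 TSS (negative is upstream), in the stretch between both genes. Its place ranked 976 in replicate 1 and 4258 in replicate 2. Rpn5 was the only bound member with more than 1 optimal summit in reach.

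The other bound Rpn genes followed at ranks 766 to 2019. Rpn3, also a lid subunit, had its summit 2 bp upstream of the TSS with rank 766 (signal 135.6), and ranks of 727 in replicate 1 and 845 in replicate 2 at that place. Rpn6, a lid subunit that braces the core against the cap, had rank 1030, with 1388 in replicate 1 and 625 in replicate 2. Its summit lay 137 bp upstream of 1 of its TSSs and in an intron of its longer transcript. Rpn11, the deubiquitinase of the lid, ranked 1811, with 1599 in replicate 1 and 2432 in replicate 2, and its summit lay 110 bp upstream. Rpn2, the large scaffold subunit of the base, ranked 2019, with 2307 in replicate 1 and 1757 in replicate 2, and its summit lay 76 bp upstream. These genes ranked within the first 3102 peaks of both replicates.

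Among the Rpt ATPases Rpt5 alone was bound, and the replicates differed there. Its pooled rank was 1727 (signal 85.9), with 1250 in replicate 1 but 6955 in replicate 2, beyond the first 3102 peaks. Its summit lay 13 bp upstream of the TSS. Rpt1 ranked 4186 in the pooled list, with 4118 in replicate 1 and 13806 in replicate 2. Rpt4, Rpt3 and Rpt2 ranked 10188, 10818 and 13721, and none of them had a replicate 2 summit within 100 bp. Rpt6 was without a pooled promoter summit, although replicate 1 held one of rank 12868.

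Of the core genes Prosbeta1, whose product is a catalytic subunit, and Prosalpha7, a subunit of the alpha ring, were bound. Prosbeta1 ranked 2022 (signal 77.5), with 2180 in replicate 1 and 2206 in replicate 2, and its summit lay 92 bp upstream of the TSS. Prosalpha7 ranked 2577, with 2269 in replicate 1 and 4283 in replicate 2, and its summit lay 58 bp upstream. The other catalytic subunits were not bound: Prosbeta5 ranked 5204 in the pooled list and Prosbeta2 ranked 13539. Prosalpha6, Prosalpha4, Prosalpha3, Prosbeta3, Prosalpha5, Prosbeta7 and Prosalpha2 had relaxed summits with ranks between 5142 and 14545. Prosalpha1, Prosbeta4 and Prosbeta6 had no pooled summit within 1000 bp, although replicate 1 held summits of rank 14237 at Prosbeta4 and 22717 at Prosbeta6.

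The remaining Rpn genes all had relaxed summits. The members nearest to the end of the optimal set were Prosalpha7 inside it, at rank 2577, and Rpn8 and Rpn1 outside it, at ranks 3289 and 3386. Rpn8, the lid partner of Rpn11, ranked 3062 in replicate 1 and 14243 in replicate 2. Rpn1, a base subunit that docks ubiquitin receptors, ranked 3451 in replicate 1 and 8454 in replicate 2. The ubiquitin receptor genes Rpn13 and Rpn10 ranked 3885 and 4071 in the pooled list, and Rpn12, Rpn7 and Rpn9 of the lid ranked 5560, 7697 and 18341.

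**Figure D2:**
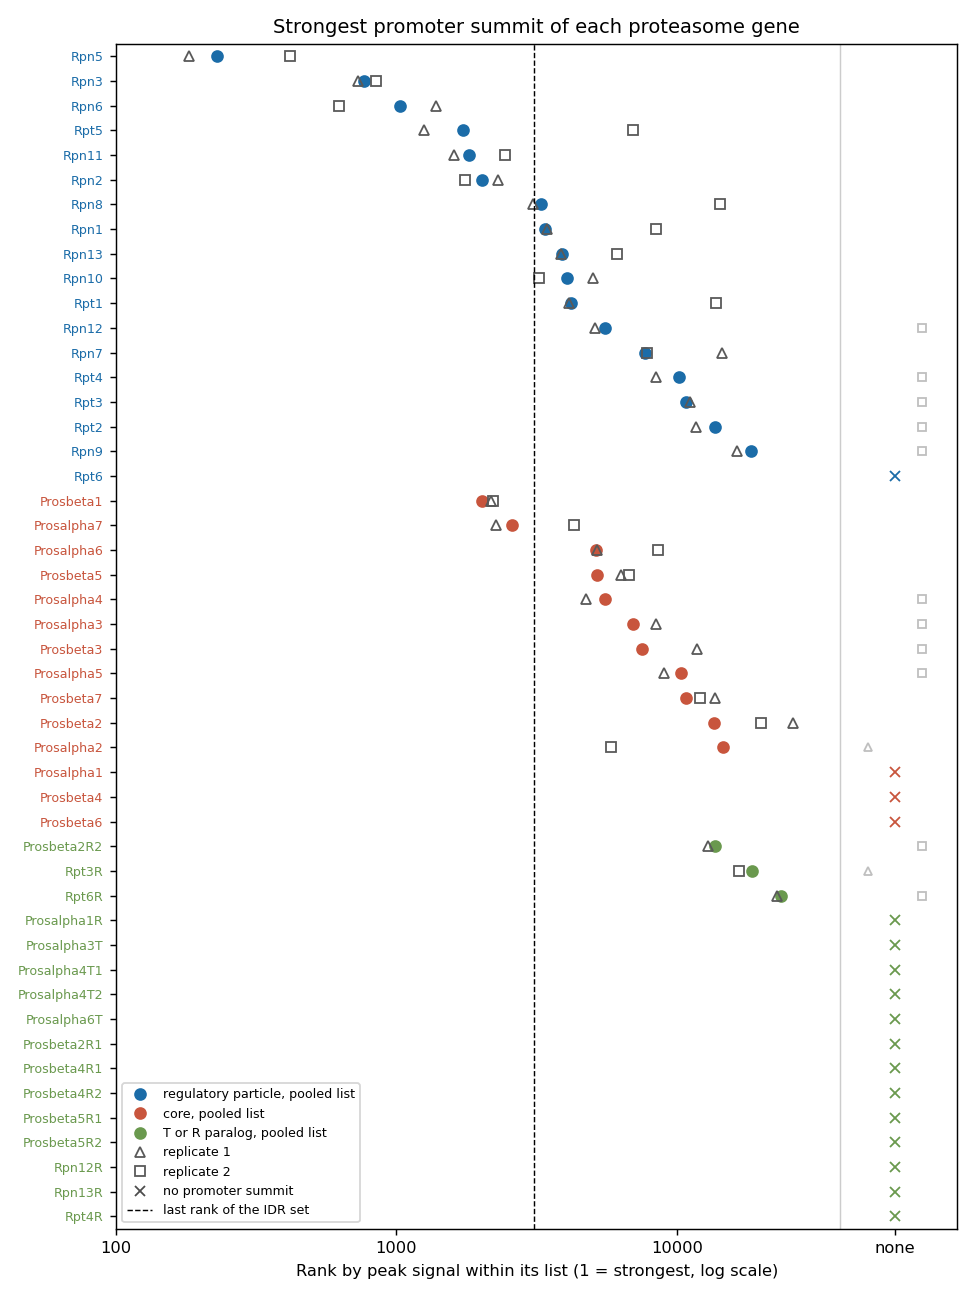
Rank of the strongest promoter summit of each of the 48 genes by peak signal within its list (log scale, 1 is strongest): filled circles give the pooled list, triangles replicate 1 and squares replicate 2 within 100 bp of that summit, and pale symbols or crosses at the right mean that no summit was found. The 8 genes left of the dashed line at rank 3102 are 6 regulatory particle and 2 core genes, and 13 of the 16 paralogs are crosses.

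The optimal set is chosen for agreement between the replicates, so that its peaks recur in both is fixed by that choice, and the values here describe how the ranks vary. All 8 bound members had a summit of each replicate within 100 bp, as 98.6% of all bound genes had in replicate 1 and 93.1% in replicate 2. For 6 of the 8 (75%) each replicate's summit lay among that replicate's first 3102 peaks, against 68.6% of all 2631 bound genes. Rpt5 and Prosalpha7 were the exceptions, both for their rank in replicate 2. Taken alone, the first 3102 peaks of replicate 1 marked 9 of 48 members, the same 8 and Rpn8, against 18.7% of all genes. Those of replicate 2 marked 6 of 48 members, against 18.1% of all genes. Of the 23 members with a relaxed summit only, 21 had a replicate 1 summit within 100 bp and 12 had a replicate 2 summit. Over all 6146 genes with a relaxed summit only, 76.9% had a replicate 1 match and 41.2% a replicate 2 match.

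The paralogs that had a summit had a weak one, and in no case did both replicates hold it. Prosbeta2R2 ranked 13724 in the pooled list and 12913 in replicate 1, with no replicate 2 summit within 100 bp. Its summit lay 448 bp upstream, in an exon of CG1116. Rpt3R ranked 18514, with 16705 in replicate 2 and no match in replicate 1, in an exon of Alg12 and 76 bp upstream of the nearest Rpt3R TSS. Rpt6R ranked 23519, with 22686 in replicate 1 and no match in replicate 2, and its summit lay in its own exon, 405 bp downstream of the TSS. All 3 summits lay in exons, against 11 of the 31 summits of all members. The remaining 13 paralogs had no pooled summit within 1000 bp: Prosalpha1R, Prosalpha3T, Prosalpha4T1, Prosalpha4T2, Prosalpha6T, Prosbeta2R1, Prosbeta4R1, Prosbeta4R2, Prosbeta5R1, Prosbeta5R2, Rpn12R, Rpn13R and Rpt4R. The replicate lists held summits near 3 of them, and the strongest ranked 6235 in replicate 2 at Rpn12R.

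Set beside the subunit gene it is named after, a paralog was the one without a summit in 10 of 16 pairs. In 2 pairs both genes had one, and the subunit gene ranked higher in each: Prosbeta2 at 13539 against Prosbeta2R2 at 13724, and Rpt3 at 10818 against Rpt3R at 18514. In 3 pairs neither had one, and in the pair of Rpt6 and Rpt6R the paralog alone did. The 16 pairs hold 12 subunit genes, since Prosalpha4, Prosbeta2, Prosbeta4 and Prosbeta5 enter more than once, so the pairs are not independent. Of the 12 subunit genes that have a paralog 0 were bound, and of the 20 that have none 8 were (40%), beside 18.9% of all genes. The interval of 0 of 12 runs to 24.2% and includes 18.9%, and that of 8 of 20 (21.9 to 61.3%) lies above 18.9%. In the relaxed list the counts were 9 of 12 and 19 of 20, beside 62.9% of all genes. Of the 12 genes 10 stood head to head with another gene (defined in the next paragraph). Of the 20 genes 12 did, among them 7 of the 8 bound genes. Over the genome 34.1% of head-to-head genes were bound, so 18.9% is not a matched level for either group. The split was made after the values were seen, and the difference was not tested.

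The paralogs differ from the other members in gene structure, and structure moves with peaks across the genome. Of the 16 paralogs 14 had a single TSS, 6 had a single exon and 4 stood head to head with another gene, meaning that an opposite-strand gene starts within 1000 bp upstream. Among the 32 subunit genes these numbers were 22, 4 and 22. Over the whole genome 34.1% of 5052 head-to-head genes were bound, against 10.2% of 8893 others, and 83.6% against 51.2% had a relaxed summit. Of single-TSS genes 14.5% were bound and 56.0% had a relaxed summit, and of single-exon genes 8.51% were bound and 41.2% had one. The part of gene structure in the difference between subunit genes and paralogs was not tested.

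Compared with genes of the same arrangement, subunit genes were bound at shares near those of the genome. Of 22 head-to-head subunit genes 7 were bound (31.8%, interval 16.4 to 52.7%), against 34.1% of all head-to-head genes, and of the 10 others 1 was, Rpn11 (10%), against 10.2%. In the relaxed list 20 of 22 (90.9%) and 8 of 10 (80%) had a summit, against 83.6% and 51.2%. Head-to-head paralogs had a relaxed summit in 2 of 4 cases and the other paralogs in 1 of 12 (8.33%, interval 1.49 to 35.4%). That last interval lies below 51.2%. Of those 12 paralogs 6 have a single exon, and of all single-exon genes 41.2% had a relaxed summit. Of these 2126 single-exon genes 608 are head to head, so 41.2% is not a matched level. The relaxed share of single-exon genes that are not head to head was not computed. Regulatory particle and core genes were head to head about as often, at 12 of 18 and 10 of 14. A single TSS was less frequent in regulatory particle genes, at 10 of 18, than in core genes, at 12 of 14. Over the genome 14.5% of single-TSS genes were bound, beside 18.9% of all genes. The part of TSS number in the difference between these classes was not tested. Among those, 5 of 12 regulatory particle genes (41.7%, interval 19.3 to 68.0%) and 2 of 10 core genes (20%, interval 5.67 to 51.0%) were bound.

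Every bound summit lay in reach of another gene's TSS. This held for 8 of 8 bound members, against 65.2% of all bound genes (1715 of 2631). As 7 of the 8 are head to head, the nearer level is that of all bound head-to-head genes, 92.7% of which (1599 of 1725) share their summit in this way. The partners were Hat1 for Rpn5, l(2)37Bb for Rpn3, ave for Rpn6, RanBP3 for Rpt5, Slbp for Rpn2, CG1671 for Prosalpha7 and Rrp42, an exosome component, for Prosbeta1. For Rpn11 it was qtc, 915 bp from the summit and not head to head. The member was the nearest gene to its strongest summit in 5 of 8 cases, while Rpn5, Rpn6 and Prosbeta1 lay further from it than their neighbour. All 8 summits were upstream of the member's nearest TSS, as were 84.4% of those of all bound genes. The median distance was 84 bp (all bound genes 156 bp). At Rpn6 the nearest TSS is the inner of 2, and the summit lies downstream of the outer one. In 6 of the 7 head-to-head cases the summit fell between both start sites, at Rpn6 counted from that inner TSS. These sites are only 42 bp apart at Rpt5 and RanBP3 and 258 bp apart at Rpn2 and Slbp. Of the 8 summits 6 were intergenic and 2 intronic.

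**Figure D3:**
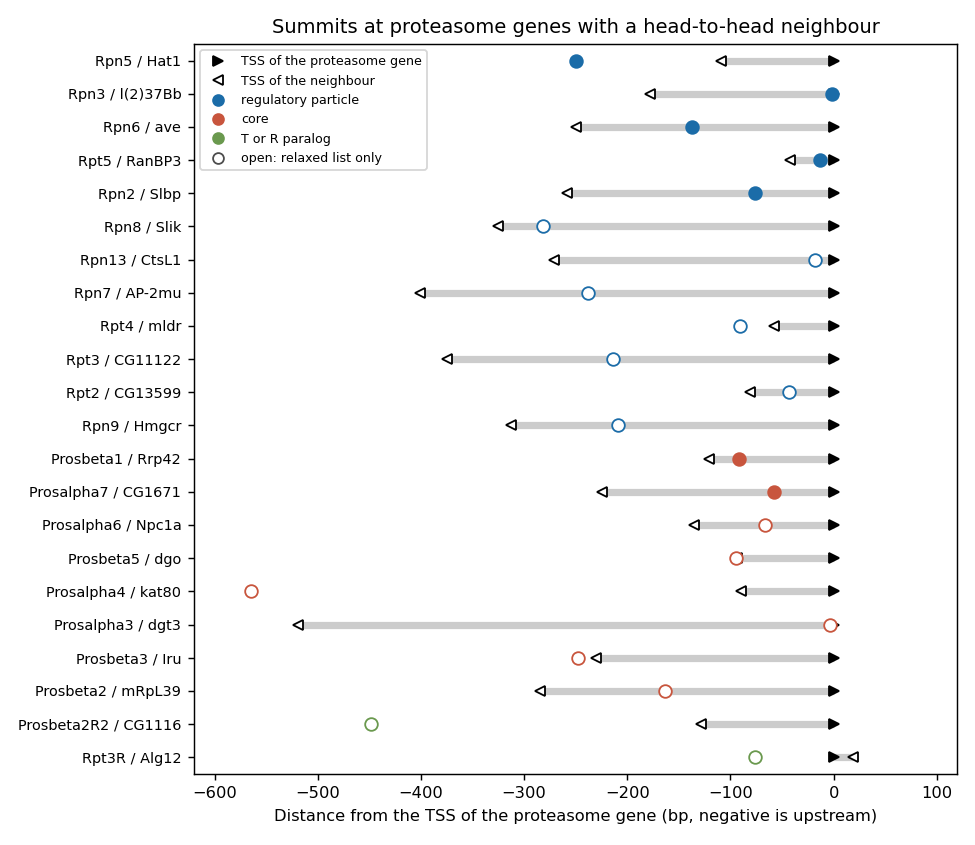
Position of the strongest summit in bp from the nearest TSS of the proteasome gene, which is the black triangle. Circles are summits, filled for the optimal set and open for the relaxed list only. Shown are the 22 members with a summit and a head-to-head neighbour, whose TSS is the open triangle. In 15 of the 22 the summit lies between both start sites, and at Rpn5 it lies beyond the TSS of Hat1.

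Base composition and motifs were read in windows of 50 bp either side of the summits. The median GC content was 32.7% at the 8 bound summits, with a range of 22.8 to 45.5%, and 53.5% in windows 500 bp away. Each of the 8 was below its own flanks, as were 74.3% of the 2014 optimal promoter summits, whose medians were 36.6% and 45.5%. The E-box CANNTG, the core bHLH target, was searched on both strands, as were all motifs. It stood at 1 of 8 bound summits, that of Rpn3, against 37.8% of optimal promoter summits. It stood at 11 of 31 summits of all members (35.5%), against 41.5% of the 12604 relaxed promoter summits. The 31 are each gene's strongest summit, whereas the 12604 are all relaxed summits near a TSS. CAGCTG, an E-box that overlaps the general word, stood at 3 of 31 summits, those of Prosalpha4, Prosbeta2R2 and Rpn9, and CACGTG at none, against 7.05% and 1.46% of relaxed promoter summits.

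TATCGATA, the word that the DNA replication-related element factor (DREF) recognises, recurred in the promoters of subunit genes. In windows from 250 bp before to 50 bp after a TSS it stood in 6 of 18 regulatory particle genes (33.3%, interval 16.3 to 56.3%), 6 of 14 core genes (42.9%, interval 21.4 to 67.4%) and 1 of 16 paralogs, that of Rpt3R (6.25%, interval 1.11 to 28.3%), against 10.2% of all protein-coding genes. Both intervals of the subunit classes lie above 10.2%. Of the 12 subunit genes with the word 3 were bound (Rpn3, Rpt5 and Prosbeta1), and of the 20 without it 5 were, which is the same share. Over all genes 30.2% of those with the word were bound and 17.6% of those without. At the summits themselves it stood within 50 bp in 3 of 31 cases (9.68%), at Prosalpha5, Prosbeta1 and Rpt5, against 2.58% of relaxed promoter summits. These sets are unlike, as the 31 are each gene's strongest summit and 2.58% covers every relaxed promoter summit. Among bound summits it stood at 2 of 8, against 4.02% of optimal promoter summits. The Dref gene itself, which shares its promoter region with RpL13, was bound with rank 718 and 545 in replicate 1, without a replicate 2 summit within 100 bp.

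The TATCGATA sites are shown with 10 bases on either side, on the sense strand, with the site in capitals, for the genes whose sequence is printed here. They were selected after the counts had been seen, to show where the word sits in each promoter. Over all 14 sites of 13 genes the first base of the site lay at -217 to 26 bp from the nearest TSS, where negative is upstream, and 12 sites had a negative position. Rpn3 has a pair of them, named by their order along the gene and counted from different TSSs. At the proximal Rpn3 site and at the Rpt3R site the nearest TSS is the inner of 2. Both of these sites lie downstream of the outer TSS. The 10 stretches lie in Release 6, in the same order, at chr2L:10221325-10221352, chr3L:14999931-14999958, chr3L:16610445-16610472 (minus strand), chr3L:16582802-16582829, chr2L:19051583-19051610, chr2L:19051856-19051883, chr3R:22462034-22462061 (minus), chr3R:23733419-23733446 (minus), chr3R:9756242-9756269 (minus) and chr3R:23752820-23752847.
Prosalpha6: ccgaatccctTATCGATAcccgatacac
Prosbeta2: catgaatataTATCGATAcaatatcgat
Prosbeta6: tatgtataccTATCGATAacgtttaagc
Rpn12: tgttaaaataTATCGATAttaaagcaca
Rpn3, distal: gttatcggagTATCGATAtcgaaaaggc
Rpn3, proximal: ccgtaaaacgTATCGATAaattgaaacg
Rpn7: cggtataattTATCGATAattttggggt
Rpn9: cccggttaaaTATCGATAttctcgcgga
Rpt3R: tgttaacagtTATCGATAttttttttac
Rpt5: tcgctgtcacTATCGATAagcgccggcg

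At Rpt5 the site's centre lay 30 bp from the summit, and at Prosbeta1 this distance was 25 bp. Over the 13 sites of genes that had a summit the median was 88 bp, and it reached 331 bp at Rpt3R. Prosbeta6 carries the word at -44 bp from its TSS and had no pooled summit within 1000 bp.

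Other promoter words gave smaller counts. GGTCACAC, the core of the element called Motif 1 in fly promoters, stood in 7 of 32 subunit promoters (21.9%) and in none of 16 paralogs, against 8.71% of all genes. Of those 7 genes 0 were bound, beside 29.0% of all genes with the word and 17.9% of those without it. TGACNNNGC, a form of the element bound by cnc with a small Maf protein, known as an activator of proteasome genes under stress, stood in 6 of 32 subunit promoters (18.8%) and 1 of 16 paralogs, against 11.2% of all genes. Of those 6 also 0 were bound, beside 23.3% of all genes with the word and 18.3% of those without it. The interval of 0 of 6 runs to 39.0% and includes both shares. No interval was computed for 0 of 7, and neither count of 0 is read as a lack of peaks. The reverse complement of TGACNNNGC ends in GTCA and can overlap GGTCACAC. Of the subunit genes 5 held both words, and in 3 of these, Prosbeta3, Prosbeta7 and Rpn1, the matches overlapped, so these counts are not independent.

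**Figure D4:**
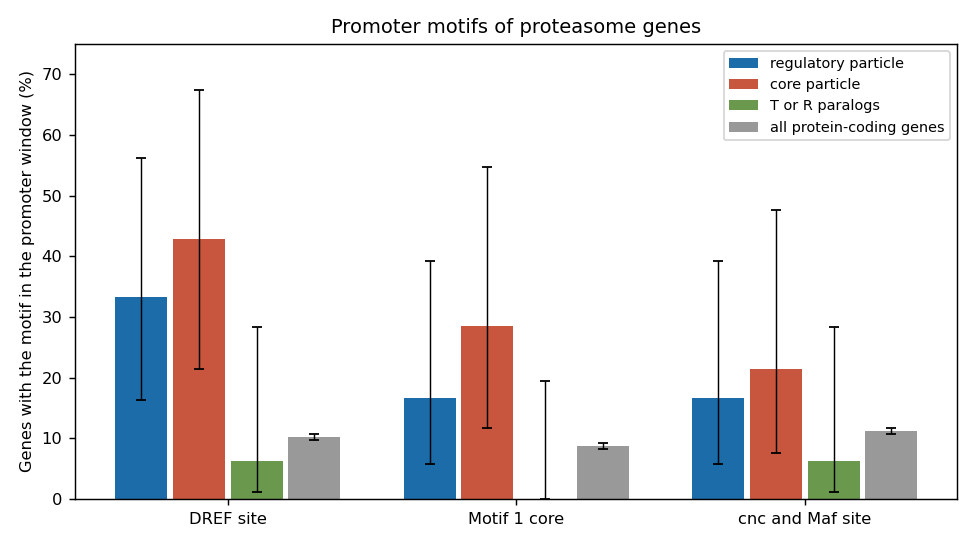
Share of genes with each motif between 250 bp before and 50 bp after a TSS, in percent, with 95% Wilson intervals, for regulatory particle genes, core genes, T or R paralogs and all protein-coding genes. The DREF site stands in 33.3% of regulatory particle and 42.9% of core genes and in 10.2% of all genes.

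Of the genes that assemble, regulate or feed the proteasome, 11 of 22 on a list were bound (50%), beside 18.9% of all genes. The list was put together by hand with earlier results of these data known. Its share (interval 30.7 to 69.3%) is therefore a description and cannot serve as evidence of an excess. The list held 23 names, of which 22 matched a gene, Ufd1-like through a synonym, and Ecm29 was not analysed here. All 22 had a relaxed summit, against 62.9% of all genes. The strongest was ntc, an F-box protein that works with the proteasome regulator PI31 in sperm differentiation, at rank 679, with 621 in replicate 1 and 771 in replicate 2. Keap1, the inhibitor of cnc, ranked 705, with 777 in replicate 1 and 593 in replicate 2. Pomp, the maturation factor of the core particle, ranked 1729, with 1440 in replicate 1 and 2745 in replicate 2. Ubi-p63E, a polyubiquitin gene, ranked 995 and cnc itself 1363, but neither had a replicate 2 summit within 100 bp, and the same held for Uch-L5 and Ufd1-like. Thus 4 of the 11 bound genes of the list had no replicate 2 match, whereas 93.1% of all bound genes had one. The ubiquitin-activating enzyme gene Uba1 ranked 2221, and p47, Pngl and rngo ranked 2012, 2540 and 2900. Other bound summits with another gene's TSS in reach were those of ntc (CG32264 and IntS10), Ubi-p63E (Sc2), rngo (Cdc50), Uch-L5 (Jarid2) and Ufd1-like (NaPi-III). These peaks cannot be assigned to the listed gene alone. The bound summits of Pomp, cnc, Uba1, p47 and Pngl had no other gene in reach. Sem1, a small lid subunit that the symbol rule leaves out, had a relaxed summit of rank 21773 only, and the deubiquitinase gene Usp14 and the shuttle receptor genes Rad23 and Ubqn had relaxed summits only. The difference between this list and the subunits was not tested.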

How the data were processed

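Per the accompanying text, the authors called peaks for each replicate and for the pooled replicates against 1 control alignment that both replicates share, and took the optimal set by IDR from these lists on dm6. The shared control can raise agreement between replicates, and its part was not tested. The names of the aligner and caller were not given in the sources used here. The deposited signal values are the authors' own and served only to rank peaks within a list. Read depth is unknown. The lists on dm3 were not used.

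TSSs are those of protein-coding transcripts in Ensembl release 115 (BDGP6.54), and sequence is the Release 6 genome. Summits are the deposited start plus the authors' summit offset (1-based). With no untagged sample analysed, nothing was tested between groups. Replicate summits were matched within 100 bp of the member's summit. Members with an optimal summit and paralogs with any summit were given with pooled and replicate ranks and distance to the TSS. The signal was given for some of them, and the other members were given by rank or range of ranks. Members and lists were chosen with earlier results of these data known. Scripts used Python 3.11.15, numpy 2.4.6, scipy 1.17.1 and matplotlib 3.10.9, and assignment and motif search were checked on simulated data.

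Alternatives took the stronger 50% of the optimal peaks, TSS distances of 500 and 2000 bp, the nearest TSS, the most upstream TSS, each replicate alone, and other match distances and motif windows.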

Additional observations from a re-analysis of the deposited data

How the results depend on the processing

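Of 41 alternatives 31 were counted as the same and 10 as moved. A count was the same when it stayed within 1.5 times its main value. For the median distance, 84 bp in the main setting, the values of 137 and 119.5 bp were counted as moved. With the stronger 50% of the optimal peaks 3 members were bound, against 10.6% of all genes: Rpn3, Rpn5 and Rpn6, which are 3 regulatory particle genes and 0 core genes, and the median distance was 137 bp. Giving a summit to the nearest TSS only left 1 core gene, Prosalpha7. With each replicate left out in turn, core genes numbered 1 to 2, all bound members 6 to 9 and the median distance ran from 86 to 119.5 bp. The count of bound paralogs was 0 in each of the 7 alternatives run on it. With the stronger peaks, 500 bp, the nearest TSS or the most upstream TSS it could not rise above 0, so these settings show nothing further. Within 2000 bp it was 0 of 16, against 23.0% of all genes. With replicate lists shortened likewise, 3 bound members were matched in both, against 6. TATCGATA stood at 0 of 31 member summits within 25 bp and at 8 within 100 bp (1.28% and 4.41% of relaxed promoter summits), so its place near summits depends on the window. No paired analysis was possible because there is 1 group. Read depth is unknown, and small classes leave wide intervals.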
